A study of Homo sapiens with 12 samples.

Results

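Desmosomes are the spot-like junctions that anchor the keratin filaments of neighbouring epithelial cells to each other. Their transmembrane cadherins, the desmogleins and desmocollins, meet in the space between cells, and their tails bind the armadillo proteins plakoglobin and the plakophilins, which hand the link on to desmoplakin and through it to keratin. In stratified squamous epithelium, the tissue from which head and neck carcinoma arises, the paralogs are used in layers, with DSG3, DSC3 and PKP1 typical of the squamous programme and DSG2, DSC2 and PKP2 of simpler or proliferating epithelium.

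The 10 desmosome genes described here are DSG2, DSG3, DSC2, DSC3, DSP, JUP, PKP1, PKP2, PKP3 and PERP, matched by symbol among 58051 Ensembl genes, and all 10 were found and passed the filter on low counts in every fit. Poly(A) RNA was sequenced from FaDu cells, an established line of a hypopharyngeal squamous cell carcinoma, and from Cal27 cells, an established line of a tongue squamous cell carcinoma, both labelled wild type. Each line was measured as parental cells and as derivatives resistant to the pan-ERBB inhibitor afatinib (AfaR) or to the EGFR inhibitor erlotinib (ErlR), with 2 biological replicates in each of 6 groups and 12 libraries in all. By the study's methods the resistant cells were selected by stepwise rising drug concentrations, kept under drug, and grown without it for a day before experiments. Each resistant model is therefore 1 selected derivative of its line, and its replicates describe that derivative and not resistance to the drug in general. All 12 libraries carry the same batch label.

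Between 16334937 and 23399259 counts per library fell on genes, and the desmosome genes took from 0.0751% to 0.312% of them. The libraries fell into 2 sets by depth and spike-in share. FaDu parental and AfaR libraries had 20156109 to 23399259 counts on genes and 5.64% to 5.82% spike-ins. FaDu ErlR and all Cal27 libraries had 16334937 to 16689855 counts and 3.86% to 4.60%. Comparisons of FaDu parental with FaDu ErlR or Cal27 parental cells cross this split. So do FaDu AfaR against FaDu ErlR and the test of whether the ErlR effect differs between the lines. The source of the split was not tested. Levels are given as CPM, the counts scaled to a common library size, after TMM normalization, a scaling that sets most genes equal between libraries, and levels of different genes are compared only as CPM per kilobase of exon. A gene was called higher or lower where edgeR's quasi-likelihood test gave a Benjamini-Hochberg adjusted p under 0.05 over all genes tested, with no limit on the fold change. All adjusted p-values below are from that test, and all fold changes are on the log2 scale. The AfaR and ErlR comparisons of a line share its 2 parental libraries. In bulk RNA, fewer cells that carry a transcript and less of that transcript per cell cannot be told apart.

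Stretches of promoter are shown for 5 of the desmosome genes that were lower in Cal27 AfaR cells, with DSC2, which did not pass the test there, beside them. Each line gives the 250 bases before a RefSeq transcription start on GRCh38.p14, written 5′ to 3′ on the strand of the gene. Capitals mark CAGGTG or its reverse complement CACCTG, the E-box bound by the SNAI and ZEB repressors.
DSG3 (chr18:31447491-31447740, plus strand): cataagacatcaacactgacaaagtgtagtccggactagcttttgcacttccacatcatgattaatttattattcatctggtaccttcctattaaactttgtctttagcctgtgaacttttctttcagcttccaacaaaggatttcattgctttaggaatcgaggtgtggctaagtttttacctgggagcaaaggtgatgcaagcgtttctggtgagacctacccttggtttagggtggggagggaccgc
PKP1 (chr1:201283256-201283505, plus strand): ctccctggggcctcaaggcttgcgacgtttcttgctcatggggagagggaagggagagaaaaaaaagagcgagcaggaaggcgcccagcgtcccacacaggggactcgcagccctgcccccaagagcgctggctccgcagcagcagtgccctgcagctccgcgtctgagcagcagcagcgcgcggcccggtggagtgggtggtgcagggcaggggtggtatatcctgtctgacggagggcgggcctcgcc
JUP (chr17:41785977-41786226, minus strand, second of 2 starts): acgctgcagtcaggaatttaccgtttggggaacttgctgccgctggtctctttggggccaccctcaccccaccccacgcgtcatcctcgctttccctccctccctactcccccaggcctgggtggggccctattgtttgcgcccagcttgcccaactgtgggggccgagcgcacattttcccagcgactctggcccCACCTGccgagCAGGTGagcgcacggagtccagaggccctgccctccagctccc
DSP (chr6:7541421-7541670, plus strand): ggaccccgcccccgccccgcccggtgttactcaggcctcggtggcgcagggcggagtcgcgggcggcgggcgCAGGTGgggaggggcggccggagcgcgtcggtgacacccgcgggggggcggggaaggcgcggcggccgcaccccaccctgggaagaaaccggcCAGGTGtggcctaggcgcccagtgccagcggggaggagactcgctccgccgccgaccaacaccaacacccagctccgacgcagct
DSG2 (chr18:31497927-31498176, plus strand): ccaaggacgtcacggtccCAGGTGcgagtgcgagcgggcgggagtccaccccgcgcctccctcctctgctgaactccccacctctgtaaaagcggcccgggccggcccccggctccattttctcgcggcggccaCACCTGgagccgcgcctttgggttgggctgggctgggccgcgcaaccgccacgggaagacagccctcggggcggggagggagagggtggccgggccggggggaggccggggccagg
DSC2 (chr18:31102422-31102671, minus strand, first of 2 starts): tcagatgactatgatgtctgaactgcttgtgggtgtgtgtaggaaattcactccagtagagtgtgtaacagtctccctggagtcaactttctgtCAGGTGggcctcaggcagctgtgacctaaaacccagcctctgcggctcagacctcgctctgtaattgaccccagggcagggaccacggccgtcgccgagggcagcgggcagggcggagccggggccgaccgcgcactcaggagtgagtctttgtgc
The E-box letters began 178 and 85 bases before the start of DSP, 232 and 116 bases before that of DSG2, 54 and 43 bases before the second start of JUP and 156 bases before the first start of DSC2. The windows of DSG3 and PKP1, the members with the largest falls in Cal27 AfaR, held none, nor did those of DSC3 and PERP. With the first listed start of each gene, 3 of the 8 members with a RefSeq window held the E-box, beside 17.5% of 27305 genes searched over the same 250 bases on both strands, and JUP held it at its second start only. PKP2 and PKP3 had no entry. The grainyhead-like motif AACCGGTT was in 0 of the 8 and in 0.106% of all genes, the AP-1 motif TGANTCA in 1 (PERP) and 6.60%, and the GC box GGGCGG in 6 and 42.3%. DSG3 had the lowest GC content of these windows, 42.8%, beside 59.6% to 78% in the windows of the other 7 members. A match of letters is a description of the sequence, and no binding was measured.

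Most of the desmosome genes were lower in Cal27 AfaR cells than in Cal27 parental cells, fewer were lower in Cal27 ErlR cells, and at most 1 passed the test in each FaDu model. In Cal27 AfaR, 6 of the 10 genes were lower (DSG2, DSG3, DSP, JUP, PKP1 and PKP3) and 0 higher, where 18.2% of all genes tested were lower and 19.5% higher. Their median log2 fold change over the 10 genes was -1.11, beside a median within 0.01 of 0 over all genes. In Cal27 ErlR, 4 were lower (DSG2, DSG3, DSC2 and JUP) and PERP was higher, against 15.3% and 12.3% of all genes, so that the 1 higher member is near the background share, and the median was -0.12 beside -0.03 over all genes. The Cal27 ErlR count of 5 was 3 without Cal27 parental replicate 2 or without Cal27 ErlR replicate 1.

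In FaDu AfaR, PKP3 alone of the 10 genes was called, as lower, where 7.49% of all genes were lower and 10.4% higher, so that the share of the members is near the background. In FaDu ErlR, 0 of the 10 genes passed edgeR's quasi-likelihood test, where 1.6% of all genes were lower and 2.58% higher. At an unadjusted p under 0.05 the FaDu ErlR count was 3 (DSC2 and PKP3 with positive values, PKP1 with a negative one), and with DESeq2 it was 1 (DSC2). The member medians were -0.14 in FaDu AfaR and 0.02 in FaDu ErlR. Both FaDu counts changed with the scaling. With scaling on the spike-ins, the median of all genes moved to 0.18 in FaDu AfaR and 0.49 in FaDu ErlR, with 90.5% and 98.4% of called genes higher in place of 58.0% and 61.6%, and the members called were then 0 and 6, those 6 with positive values. With upper-quartile scaling, 71.7% of the genes called in FaDu AfaR were higher. In the Cal27 models spike-in scaling moved the median of all genes to 0.01 and 0, and the members called remained 6 and 5 in number.

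**Figure D1:**
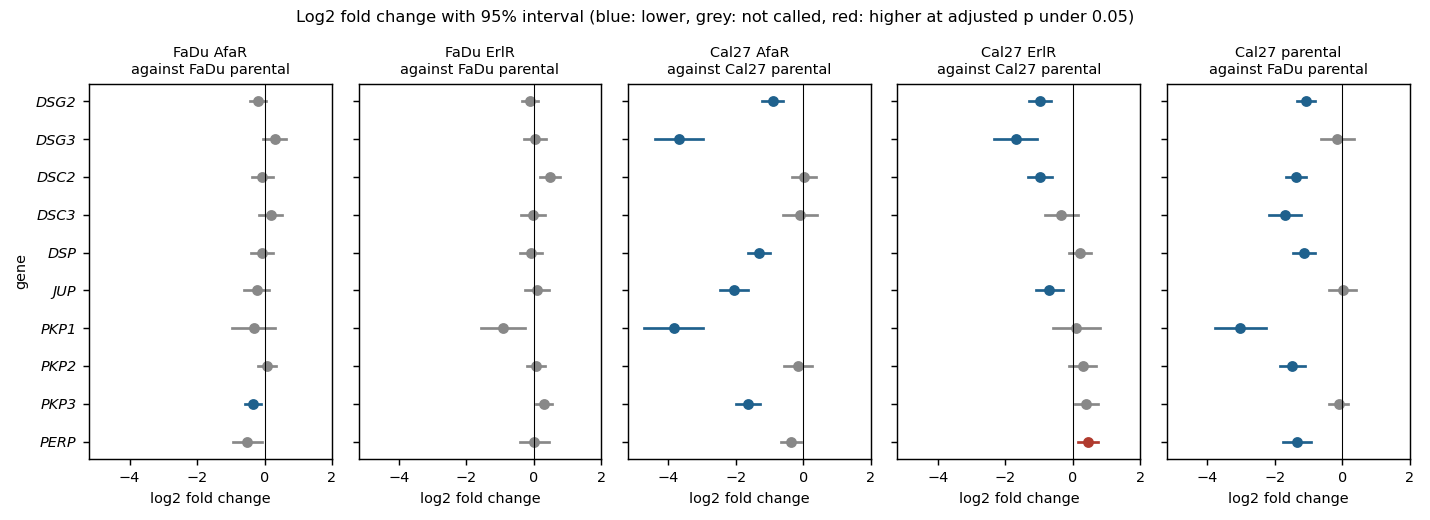
Log2 fold change (horizontal axis) of each desmosome gene (vertical axis) in 5 comparisons, with its 95% interval from edgeR's quasi-likelihood fit. Blue marks genes called lower, red higher and grey not called, and in Cal27 AfaR against Cal27 parental the intervals of DSG3 and PKP1 end at -2.99 and -2.96.

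Ordered by level per kilobase, PERP led in FaDu parental cells with 155 ± 16.4 CPM per kb (SD, n = 2), followed by JUP with 93.7 ± 8.29, DSP with 69.3 ± 5.23, DSG2 with 68.7 ± 2.07 and PKP3 with 57.7 ± 4.51 CPM per kb. PKP2 (30.5 ± 2.71), DSC3 (23.6 ± 0.128), PKP1 (17.9 ± 1.43), DSG3 (8.30 ± 0.729) and DSC2 (4.91 ± 0.282) came after them. The libraries of DSP and DSG2 overlapped, and those of every other pair of neighbours in this order did not. In Cal27 parental cells JUP led with 94.9 ± 4.59 CPM per kb, PERP followed with 61.1 ± 0.924, and DSC2 was again last with 1.88 ± 0.155, its libraries overlapping those of PKP1 (2.21 ± 0.595). DSG2 and DSP overlapped there too, as did DSG3 (7.51 ± 0.328) and DSC3 (7.30 ± 1.47). In Cal27 AfaR cells the last places were held by DSG3, with 0.574 ± 0.336 CPM per kb, and PKP1, with 0.152 ± 0.0432 CPM per kb, while PERP led with 47.3 ± 0.855.

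**Figure D2:**
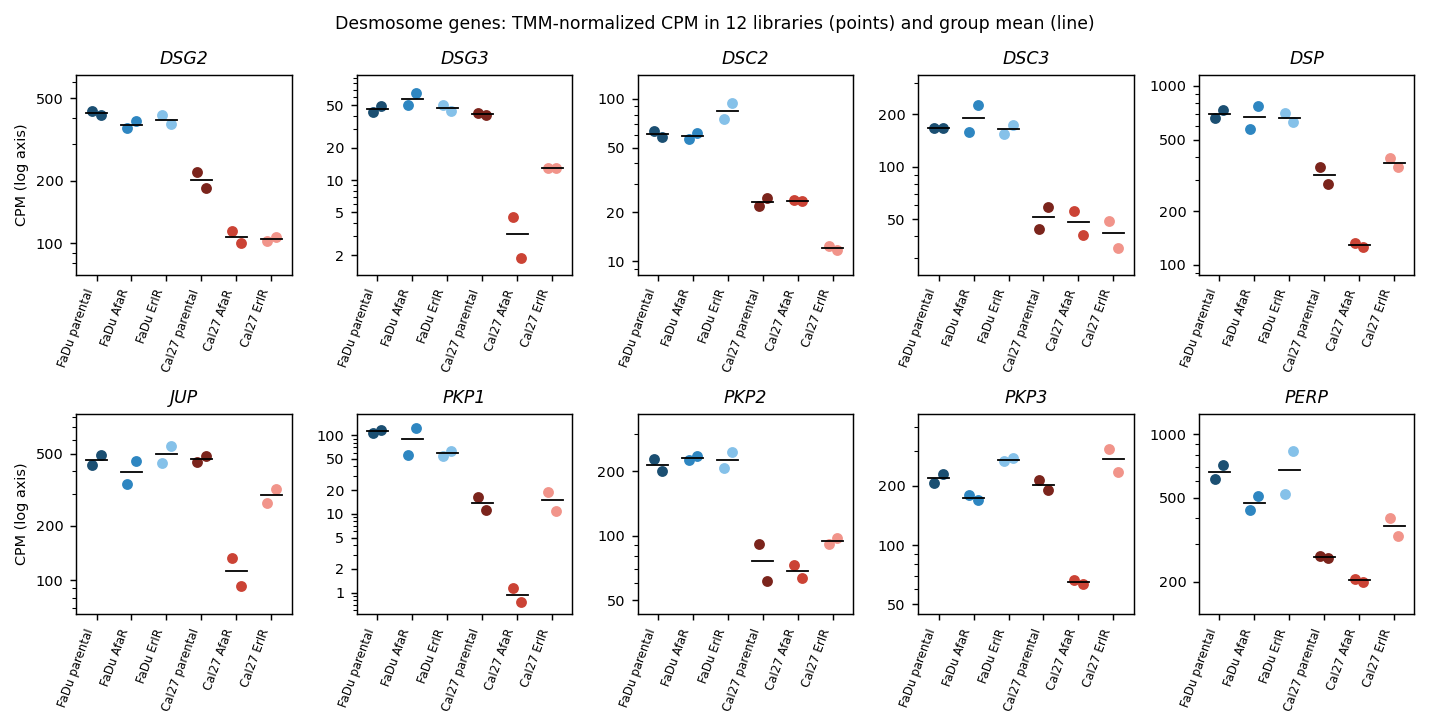
TMM-normalized CPM of the 10 desmosome genes (vertical log axes, each with its own range) in the 6 groups (horizontal axis), each point a library and each line the mean of 2. In Cal27 AfaR the points of DSG3, DSP, JUP, PKP1 and PKP3 lie below those of all 5 other groups.

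DSG2 (ENSG00000046604, chr18:31498043-31549008 on GRCh38, plus strand) encodes the desmoglein found in nearly all tissues that make desmosomes. It had 221 and 185 CPM in the Cal27 parental libraries, 115 and 100.4 CPM in Cal27 AfaR, and 102 and 108 CPM in Cal27 ErlR. Both resistant models were below both parental libraries and overlapped each other. DSG2 differed by -0.91 (standard error 0.14, adjusted p = 0.000993) on the log2 scale in Cal27 AfaR and by -0.98 (standard error 0.14, adjusted p = 0.00141) in Cal27 ErlR. The FaDu libraries had more, with 434 and 416 CPM in parental, 359 and 389 CPM in AfaR, and 416 and 375 CPM in ErlR libraries. The FaDu log2 fold changes of DSG2 were -0.20 (95% interval -0.44 to 0.03) in AfaR and -0.12 (-0.35 to 0.12) in ErlR. An antisense gene, DSG2-AS1, shares 171 bases or 2.76% of the DSG2 exons and had at most 6 counts in a library.

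DSG3 (ENSG00000134757, chr18:31447795-31478702, plus strand) encodes the desmoglein of the lower layers of squamous epithelium and the antigen of pemphigus vulgaris. Its Cal27 parental libraries had 42.8 and 40.2 CPM, the AfaR libraries 4.48 and 1.86 CPM from 83 and 32 counts, and the ErlR libraries 13.0 and 13.0 CPM. The 3 Cal27 groups did not overlap, and the AfaR libraries were the lowest of the 12. DSG3 fell by 3.69 on the log2 scale in Cal27 AfaR (standard error 0.32, adjusted p = 3.69e-05) and by 1.70 in Cal27 ErlR (standard error 0.28, adjusted p = 0.00253). In FaDu the gene had 43.0 and 48.7 CPM in parental, 50.1 and 64.5 CPM in AfaR, and 49.999 and 44.3 CPM in ErlR libraries. The FaDu AfaR libraries were above the parental ones with a log2 fold change of 0.30 (95% interval -0.03 to 0.64, adjusted p = 0.18), which did not pass, and ErlR gave 0.03 (-0.31 to 0.37).

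DSC2 (ENSG00000134755, chr18:31058840-31102415, minus strand), the desmocollin of most epithelia and of heart, was lower in the erlotinib-resistant Cal27 cells and near its parental level in the afatinib-resistant ones. It had 21.9 and 24.6 CPM in Cal27 parental, 23.7 and 23.6 CPM in AfaR, and 12.5 and 11.7 CPM in ErlR libraries. The AfaR libraries lay within the parental range and the ErlR libraries below it. The log2 fold change was 0.02 (95% interval -0.33 to 0.38) in Cal27 AfaR and -0.97 (standard error 0.16, adjusted p = 0.00268) in Cal27 ErlR. In FaDu the values were 63.3 and 58.3 CPM in parental, 56.5 and 61.7 CPM in AfaR, and 75.4 and 94.2 CPM in ErlR libraries. Both FaDu ErlR libraries were above the parental ones, with a log2 fold change of 0.47 that did not pass (95% interval 0.17 to 0.77, adjusted p = 0.084), and DESeq2 gave an adjusted p of 0.0497. The FaDu AfaR value was -0.06 (-0.36 to 0.24).

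DSC3 (ENSG00000134762, chr18:30990008-31042815, minus strand), the desmocollin of basal squamous cells, passed the test in neither resistant model of either line. Its values were 44.2 and 58.9 CPM in Cal27 parental, 55.6 and 40.9 CPM in AfaR, and 48.8 and 34.2 CPM in ErlR libraries, with overlap between all 3 groups. The log2 fold changes were -0.09 (95% interval -0.59 to 0.41) and -0.34 (-0.84 to 0.16), so that a fall of DSC3 as large as that of DSG3 lies outside the interval in both models. In FaDu the gene had 166 and 167 CPM in parental, 157 and 224 CPM in AfaR, and 155 and 172 CPM in ErlR libraries. FaDu AfaR replicate 2 was the highest, and without FaDu AfaR replicate 1 the log2 fold change was 0.40 with an adjusted p of 0.048, beside 0.18 (-0.17 to 0.53) with all libraries.

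JUP (ENSG00000173801, chr17:41754604-41786931, minus strand) encodes plakoglobin, which binds the cadherin tails in desmosomes and in adherens junctions. It had 453 and 485 CPM in Cal27 parental, 132 and 92.3 CPM in AfaR, and 269 and 321 CPM in ErlR libraries, again without overlap. JUP fell by 2.06 on the log2 scale in Cal27 AfaR (standard error 0.19, adjusted p = 5.03e-05) and by 0.70 in Cal27 ErlR (standard error 0.18, adjusted p = 0.0197). The ErlR call was lost without Cal27 parental replicate 2 (-0.63, adjusted p = 0.0821) or without Cal27 ErlR replicate 1 (-0.57, adjusted p = 0.123). In FaDu the values were 434 and 492 CPM in parental, 341 and 456 CPM in AfaR, and 443 and 555 CPM in ErlR libraries, overlapping in both comparisons. The log2 fold changes were -0.24 (95% interval -0.59 to 0.12) and 0.10 (-0.26 to 0.45).

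PKP1 (ENSG00000081277, chr1:201283452-201332993, plus strand) encodes the plakophilin that is most abundant in stratified epithelium and that clusters desmosomal proteins into stable plaques. It was the member furthest below parental cells in Cal27 AfaR, with 16.3 and 11.1 CPM in parental and 1.13 and 0.755 CPM in AfaR libraries, the latter from 21 and 13 counts. The ErlR libraries had 19.1 and 10.9 CPM and overlapped the parental ones. PKP1 differed by -3.84 on the log2 scale (standard error 0.39, adjusted p = 9.75e-05) in Cal27 AfaR and by 0.10 (95% interval -0.58 to 0.79) in Cal27 ErlR. In FaDu the gene had 105 and 117 CPM in parental, 56.2 and 124 CPM in AfaR, and 54.9 and 63.4 CPM in ErlR libraries. The FaDu AfaR libraries differed from each other more than 2-fold, and the log2 fold change was -0.32 (-0.96 to 0.32) with both, but -0.998 (adjusted p = 0.0173) without FaDu AfaR replicate 2 and 0.13 without replicate 1. Both FaDu ErlR libraries were below the parental ones, with a log2 fold change of -0.92 that did not pass (-1.57 to -0.27, adjusted p = 0.11), and that did with the fit of the 4 libraries compared (adjusted p = 0.0187).

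PKP2 (ENSG00000057294, chr12:32790745-32896840, minus strand), the plakophilin of simple epithelium and heart, passed the test in neither resistant model of either line. It had 91.8 and 61.3 CPM in Cal27 parental, 73.1 and 63.6 CPM in AfaR, and 91.8 and 98.0 CPM in ErlR libraries. Its log2 fold changes were -0.16 (95% interval -0.58 to 0.25) in Cal27 AfaR and 0.29 (-0.13 to 0.70) in Cal27 ErlR, the latter 0.62 (adjusted p = 0.0362) without Cal27 parental replicate 1 and 0.039 (adjusted p = 0.923) without Cal27 parental replicate 2. The FaDu libraries lay between 201 and 247 CPM in all 3 groups, with log2 fold changes of 0.08 (-0.19 to 0.35) and 0.07 (-0.20 to 0.34).

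PKP3 (ENSG00000184363, chr11:392614-404908, plus strand) encodes the plakophilin of nearly all epithelia, which binds the widest set of desmosomal partners. It had 215 and 191 CPM in Cal27 parental, 66.4 and 63.6 CPM in AfaR, and 309 and 235 CPM in ErlR libraries. The AfaR libraries were below and the ErlR libraries above both parental ones. PKP3 fell by 1.64 on the log2 scale in Cal27 AfaR (standard error 0.16, adjusted p = 7.19e-05), and its Cal27 ErlR value of 0.40 did not pass (95% interval 0.05 to 0.74, adjusted p = 0.0819), with 0.61 (adjusted p = 0.0228) without Cal27 ErlR replicate 2 and 0.19 (adjusted p = 0.473) without Cal27 ErlR replicate 1. In FaDu the values were 206 and 231 CPM in parental, 179 and 169 CPM in AfaR, and 267 and 277 CPM in ErlR libraries, with no overlap between the groups. PKP3 fell by 0.35 in FaDu AfaR (standard error 0.11, adjusted p = 0.0479), a call that was lost when any of the 4 FaDu parental and AfaR libraries was left out (adjusted p from 0.0534 to 0.284), in the fit of all 12 libraries (adjusted p = 0.107) and with the replicate number as a block (adjusted p = 0.0641). The FaDu ErlR value was 0.30 (0.07 to 0.54, adjusted p = 0.14).

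DSP (ENSG00000096696, chr6:7541575-7586717, plus strand) encodes desmoplakin, the plakin that ties the plaque to keratin. Its Cal27 libraries had 353 and 285 CPM in parental, 132 and 125 CPM in AfaR, and 395 and 351 CPM in ErlR cells. Both AfaR libraries lay below every other library, and the ErlR libraries overlapped the parental ones. DSP fell by 1.31 on the log2 scale in Cal27 AfaR (standard error 0.15, adjusted p = 0.000173) and gave 0.20 (95% interval -0.12 to 0.52) in Cal27 ErlR. In FaDu it had 662 and 737 CPM in parental, 571 and 771 CPM in AfaR, and 704 and 628 CPM in ErlR libraries, all overlapping. The FaDu log2 fold changes were -0.08 in both models (-0.41 to 0.25 in AfaR and -0.41 to 0.25 in ErlR).

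PERP (ENSG00000112378, chr6:138088505-138107511, minus strand) encodes a tetraspan membrane protein that is a target of p63 and that is needed for desmosome assembly in stratified epithelium. It had 265 and 259 CPM in Cal27 parental, 205 and 200.1 CPM in AfaR, and 401 and 330.0 CPM in ErlR libraries, without overlap. PERP was higher by 0.46 in Cal27 ErlR (standard error 0.14, adjusted p = 0.0336), a call that was lost without Cal27 parental replicate 1 (0.49, adjusted p = 0.104), without Cal27 parental replicate 2 (0.46, adjusted p = 0.155) or without Cal27 ErlR replicate 1 (0.31, adjusted p = 0.224), in the fit of all 12 libraries (adjusted p = 0.0676) and with the replicate number as a block (adjusted p = 0.0561). The Cal27 AfaR value of -0.37 did not pass (95% interval -0.67 to -0.06, adjusted p = 0.0574). In FaDu the values were 614 and 713 CPM in parental, 438 and 507 CPM in AfaR, and 521 and 831 CPM in ErlR libraries. The FaDu AfaR libraries were below the parental ones with a log2 fold change of -0.51 that did not pass (-0.95 to -0.07, adjusted p = 0.097), and did so with DESeq2 (adjusted p = 0.0341), and the ErlR libraries straddled the parental ones (0.01, -0.42 to 0.45).

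Compared with each other, the resistant models of Cal27 differed in 7 of the 10 genes. In AfaR against ErlR cells, 6 were lower (PKP1, PKP3, DSG3, DSP, JUP and PERP), where 23.2% of all genes were lower, and DSC2 was higher, where 26.5% were. PKP1 differed by -3.94 on the log2 scale (standard error 0.39, adjusted p = 5.73e-05), PKP3 by -2.04 (adjusted p = 1.53e-05), DSG3 by -1.995 (adjusted p = 0.000777), DSP by -1.51 (adjusted p = 5.21e-05), JUP by -1.37 (adjusted p = 0.000317), PERP by -0.82 (adjusted p = 0.000993) and DSC2 by 0.99 (adjusted p = 0.000912). Upper-quartile scaling moved the median of all genes in this comparison from 0.03 to 0.12 and left the number of members called at 7. In FaDu AfaR against FaDu ErlR, 2 genes were lower, PKP3 (-0.65, adjusted p = 0.00592) and DSC2 (-0.53, adjusted p = 0.0303), and 0 higher, where 7.65% and 8.06% of all genes were. The DSC2 difference was not called without FaDu ErlR replicate 2 (-0.37, adjusted p = 0.168), without FaDu AfaR replicate 1 (adjusted p = 0.0911) or without FaDu AfaR replicate 2 (adjusted p = 0.0814). In this comparison the split of called genes moved with the scaling, from 51.3% higher to 63.2% with upper-quartile and to 14.5% with spike-in scaling, where the median of all genes was -0.29 and 4 members were lower.

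The effect of resistance on these genes was then tested for a difference between the lines, as an interaction term in a fit of all 12 libraries. For AfaR, 6 genes had a lower effect in Cal27 than in FaDu (DSG2, DSG3, DSP, JUP, PKP1 and PKP3), where 10.5% of all genes did and 8% had a higher one. For ErlR, 3 genes did (DSG2, DSG3 and DSC2), where 9.8% of all genes did and 8.8% had a higher effect. The interaction was -4.02 for DSG3 (standard error 0.35, adjusted p = 1.35e-05) and -3.54 for PKP1 (standard error 0.58, adjusted p = 0.00127) with AfaR, and -1.71 for DSG3 (standard error 0.33, adjusted p = 0.00431) and -1.42 for DSC2 (standard error 0.19, adjusted p = 0.000768) with ErlR. DSG2 had the smallest AfaR interaction of the 6, -0.73 (adjusted p = 0.0108), and it was not called without FaDu parental replicate 2 (-0.70, adjusted p = 0.0517). Spike-in scaling moved the median of all genes to -0.18 and -0.49 in these interactions, with 28.4% and 6.99% of called genes higher in place of 43.1% and 47.3%, and the 9 interactions, which belong to 7 members, kept their direction and their calls.

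Already before selection the lines differed. By the study's methods FaDu cells were grown in EMEM and Cal27 cells in DMEM with GlutaMAX, so line and medium cannot be told apart here. In Cal27 parental against FaDu parental cells, 7 of the 10 genes were lower (PKP1, DSC3, PKP2, DSC2, PERP, DSP and DSG2), where 26.8% of all genes were, and 0 were higher, where 28.7% were. The member median was -1.24 beside 0.04 over all genes. PKP1 differed most, from 111 ± 8.88 CPM in FaDu to 13.7 ± 3.70 CPM in Cal27, or by -3.02 on the log2 scale (standard error 0.35, adjusted p = 1.38e-05). DSC3 differed by -1.69, PKP2 by -1.49, DSC2 by -1.39, PERP by -1.34, DSP by -1.13 and DSG2 by -1.07, with adjusted p-values from 3.89e-06 to 6.36e-05. DSG3 (-0.14, 95% interval -0.63 to 0.34), JUP (0.02, -0.38 to 0.42) and PKP3 (-0.11, -0.39 to 0.18) did not pass. With spike-in scaling the median of all genes moved to 0.62 and 82.2% of called genes were higher in place of 51.7%. The 7 genes were lower also on that scale, with -0.49 for DSG2 as the smallest change, while JUP (0.60, adjusted p = 0.0114) and PKP3 (0.47, adjusted p = 0.0166) were then higher. The summed level of the 10 genes was 3069 ± 160 CPM in FaDu parental and 1663 ± 87.4 CPM in Cal27 parental cells, and 760 ± 67.5 CPM in Cal27 AfaR beside 1587 ± 105 CPM in Cal27 ErlR.

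The balance between paralogs was followed as the share of each gene in the summed level per kilobase of its family, with no test, since 2 libraries against 2 cannot go below p = 0.333 in a two-sided exact permutation test. DSG3 made up 17.8% and 19.6% of the desmogleins in the Cal27 parental libraries, 4.19% and 2.03% in AfaR and 12.5% and 11.9% in ErlR. In FaDu it made up 9.99% and 11.6% in parental, 13.5% and 15.7% in AfaR, and 11.9% and 11.7% in ErlR libraries. The DSG3 share was thus below its parental libraries in both Cal27 models and above them in FaDu AfaR. In FaDu ErlR it lay close to the upper of the parental libraries.

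Among the plakophilins, PKP2 made up 18.0% and 14.3% in Cal27 parental and 36.9% and 34.8% in Cal27 AfaR libraries, where its own CPM did not pass the test and PKP1 and PKP3 were lower. PKP3 made up 78.4% and 82.8% in Cal27 parental, 62.4% and 64.7% in AfaR, and 83.5% and 79.9% in ErlR libraries. PKP1 had its highest share in FaDu, with 16.3% and 17.4% in parental, 10.3% and 20.4% in AfaR, and 8.15% and 8.61% in ErlR libraries. The desmocollins were led by DSC3 in every library, and DSC2 made up from 13.6% to 24.8% of them in all libraries but 1, Cal27 ErlR replicate 1 with 12.7%.

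**Figure D3:**
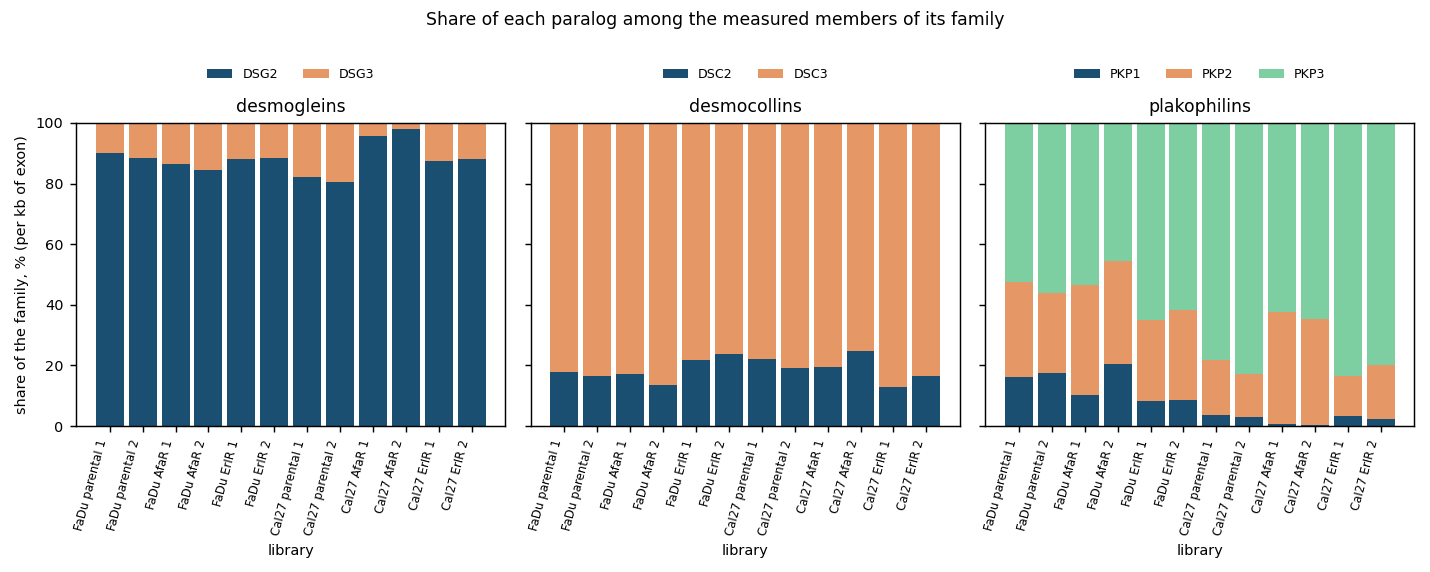
Share in percent (vertical axis, CPM per kb of exon) of each paralog among DSG2 and DSG3, DSC2 and DSC3, and PKP1, PKP2 and PKP3, in each of the 12 libraries (horizontal axis, stacked bars that sum to 100%). DSG3 shrinks to 4.19% and 2.03% of the desmogleins in Cal27 AfaR, where PKP2 reaches 36.9% and 34.8% of the plakophilins.

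The 4 cadherin members lie in a single cluster of 7 desmosomal cadherin genes at chr18:30990008-31549008, a span of 559 kb in the order DSC3, DSC2, DSC1, DSG1, DSG4, DSG3 and DSG2. In Cal27 AfaR, DSG2 and DSG3 at one end were lower, while DSC2 and DSC3 at the other end had values of 0.02 and -0.09, and in Cal27 ErlR, DSC2 was lower beside DSC3 at -0.34. The 3 remaining cadherins of the cluster, which are the ones of the upper layers of epidermis and of hair, were almost silent. DSG4 had 0 counts in all 12 libraries and DSC1 at most 2. DSG1 had 13 and 19 counts in FaDu parental, 12 and 31 in FaDu AfaR, 6 and 5 in FaDu ErlR, and 0 or 1 in each Cal27 library. DSG1 was tested only in FaDu and in the fit of all libraries, passing in neither FaDu model (0.20 with adjusted p = 0.82 in AfaR and -1.18 with adjusted p = 0.32 in ErlR). It was called lower in Cal27 parental than in FaDu parental cells (adjusted p = 0.00162), where both Cal27 libraries were at 0.

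**Figure D4:**
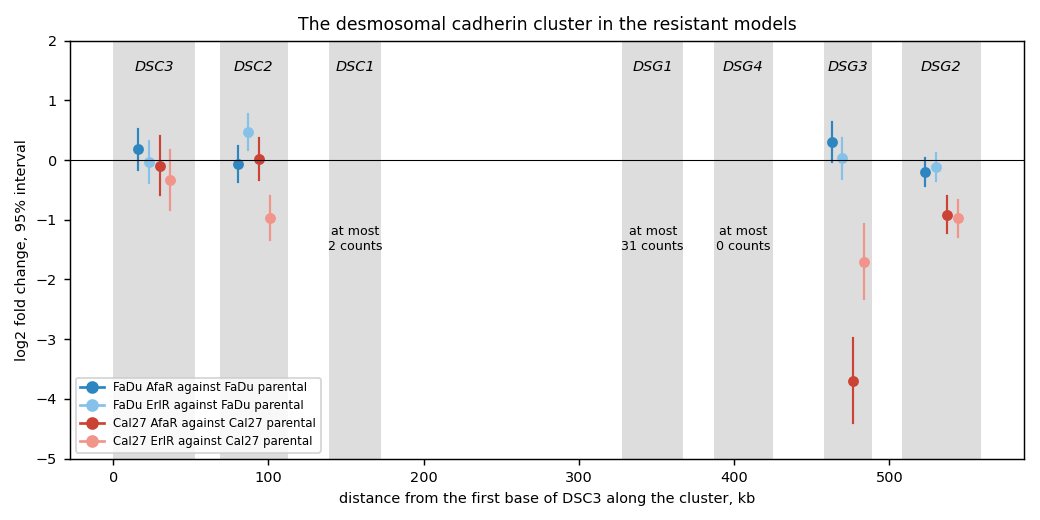
Log2 fold change against parental cells with its 95% interval (vertical axis) of the cadherin genes along the cluster, by distance in kb from the first base of DSC3 (horizontal axis), grey bands marking the genes. The whole interval lies below 0 for DSG3 and DSG2 in both Cal27 models and for DSC2 in Cal27 ErlR alone. DSC1, DSG1 and DSG4 carry only their highest counts of 2, 31 and 0.

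Across the 12 libraries the members rose and fell together to differing degrees, as a description over libraries of 2 lines that share their group differences. DSP and PKP1 had the highest Pearson correlation of log2 CPM (r = 0.990), followed by DSG3 and JUP (r = 0.953), and DSC2 and PKP3 the lowest (r = 0.185). Against the mean of the other 9 members, DSP and PKP1 correlated at 0.966 each, and PKP3 (0.652) and DSC2 (0.740) least. Among 10516 other genes averaging 5 CPM or more, the 5 most like the mean profile of the members were EVPL (r = 0.992), SHANK2 (0.986), PRR5 (0.986), EPN2 (0.984) and NECTIN1 (0.983). EVPL encodes envoplakin, a plakin relative of desmoplakin, and NECTIN1 an adhesion molecule of adherens junctions.

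Genes that work beside the desmosome were counted from fixed lists. Of all genes tested, 19.5% were higher and 18.2% lower in Cal27 AfaR, and 12.3% and 15.3% in Cal27 ErlR. In FaDu AfaR 10.4% were higher and 7.49% lower, and in FaDu ErlR 2.58% and 1.6%. Of the plakin and armadillo relatives PPL, EVPL, CDSN and PKP4, 3 were tested. In Cal27 AfaR, EVPL (-1.15, adjusted p = 0.00044) and PKP4 (-0.37, adjusted p = 0.0358) were lower, in FaDu AfaR PPL was higher (0.43, adjusted p = 0.0241), and 0 were called in either ErlR model. Between parental cells PKP4 was higher in Cal27 (1.04) and EVPL (-1.03) and PPL (-0.93) lower. Of 14 keratins, the filaments that desmosomes hold, 9 of 13 tested were lower and 0 higher in Cal27 AfaR, led by KRT6B (-7.81) and KRT14 (-7.24), with a median of -2.73. In Cal27 ErlR 8 of 13 were lower and 0 higher, with KRT14 at -3.19 and KRT6B at -2.58, the latter -4.57 without Cal27 ErlR replicate 1. KRT6B is nearly identical to KRT6A and KRT6C, so reads may be divided among them and its values are uncertain. In FaDu AfaR 4 of 14 were lower, KRT4 (-3.69) and KRT13 (-3.60) most, which gave -7.64 and -6.49 without FaDu AfaR replicate 2, and in FaDu ErlR 2, KRT4 (-4.41) and KRT7 (-1.09).

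Of 10 genes of the adherens junction, 3 were higher and 6 lower in Cal27 AfaR. CDH1, the cadherin of epithelial cells, fell by 2.42 and NECTIN4 fell by 4.21, while CDH2, the cadherin of neural and mesenchymal cells, was higher by 1.59 and CTNNB1, the beta-catenin gene, by 0.85. In Cal27 ErlR 1 was higher (CTNNB1, 0.96) and 5 lower, among them NECTIN4 (-2.04) and CDH2 (-1.57). FaDu AfaR had 3 higher, CDH2 (1.45) and CDH1 (0.69) among them, and 0 lower, and FaDu ErlR had 0 called. Of 9 hemidesmosome genes, which anchor cells to the basement membrane, 6 were lower in Cal27 AfaR, led by COL17A1 (-3.69) and LAMA3 (-2.09), and 2 higher, PLEC (1.097) and CD151 (0.83). In Cal27 ErlR 4 were higher, PLEC (1.104) among them, and 0 lower. FaDu AfaR had 2 lower, ITGA6 (-0.84) and CD151 (-0.54), and FaDu ErlR 0 called.

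Of 25 regulators of desmosome genes or of their proteins, 24 were tested in Cal27. In Cal27 AfaR 7 were higher and 13 lower. ZEB1 and ZEB2, repressors of epithelial junction genes, were higher by 5.37 (adjusted p = 9.54e-06) and 4.12 (adjusted p = 6.33e-06). The SNAI genes moved in opposite directions. SNAI1 went from 2.80 ± 0.327 CPM in Cal27 parental to 0.440 ± 0.294 CPM in Cal27 AfaR cells, and SNAI2 from 31.5 ± 2.03 to 62.7 ± 4.86 CPM. The epithelial regulators OVOL1 (-4.21), GRHL1 (-4.01) and TP63 (-3.41) were lower. ZEB1 had 0.379 ± 0.124 CPM in Cal27 parental and 15.9 ± 0.653 CPM in Cal27 AfaR cells, and TP63, which encodes p63, went from 227 ± 5.24 to 21.3 ± 7.02 CPM. In Cal27 ErlR 4 were higher, SNAI2 (1.73) and PRKCD (1.57) most, and 5 lower, SNAI1 (-1.64) among them. In FaDu AfaR 4 of 25 were higher, KLF4 (1.39) and TWIST1 (1.24) most, and 2 lower, KLF5 (-1.46) and SNAI1 (-1.18), and in FaDu ErlR 0 were called. The regulator counts in Cal27 ErlR and FaDu AfaR are near the shares of all genes called there. Of the list genes called and named in each comparison, markers included, 10 of 11 lost the call in FaDu AfaR when some 1 library was left out (all but KLF5), as did 2 of 2 in FaDu ErlR, 2 of 20 in Cal27 AfaR (PKP4 and CD68) and 5 of 17 in Cal27 ErlR (SNAI1, CD68, TP63 and CDH1 among them). Whether any of these regulators acted on the desmosome genes was not tested.

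Most markers of squamous carcinoma cells, and some of fibroblasts, moved with the Cal27 AfaR result. The summed level of 6 squamous markers (TP63, KRT5, KRT14, EPCAM, CDH1 and SOX2) was 2957 to 3939 CPM in Cal27 parental, 425 to 560 CPM in Cal27 AfaR and 3721 to 3962 CPM in Cal27 ErlR libraries. KRT5 made up most of it, with means of 2429, 365 and 2988 CPM in these groups. In AfaR 5 of the 6 were lower, and SOX2, not called, went from 1.55 to 4.04 CPM. In Cal27 ErlR TP63 (0.75) was higher and KRT14 (-3.19) and CDH1 (-0.68) were lower. In the FaDu libraries the sum of the 6 lay between 3654 and 9518 CPM. The 8 fibroblast markers summed to 30.2 to 41.8 CPM in Cal27 parental, 315 to 327 CPM in AfaR and 5.37 to 10.6 CPM in ErlR libraries. In AfaR 3 of the 5 tested were higher, LUM by 8.09 and COL1A1 by 3.15. COL1A1 made up most of the sum, from 30.4 CPM in parental to 269 CPM in AfaR cells. LUM went from 0.117 to 33.6 CPM and PDGFRB from 1.63 to 12.3 CPM. COL3A1 (0.904 to 0.815 CPM), THY1 (0.525 to 0.394), PDGFRA (0.146 to 0.027) and DCN (0.058 in both) did not rise. In Cal27 ErlR 3 of the fibroblast markers were lower. In FaDu the 8 summed to at most 10.5 CPM. The 4 endothelial markers summed to 30.1 to 37.4 CPM in Cal27 parental and AfaR, 2.56 to 6.17 CPM in Cal27 ErlR and 3.20 to 20.6 CPM in FaDu libraries. CDH5 made up most of that sum in Cal27 parental (30.5 CPM) and AfaR cells (32.15 CPM). The 5 immune markers summed to 10.2 to 18.1 CPM in all libraries. The part of these markers in the fall of the desmosome genes was not tested.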

How the data were processed

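Poly(A) RNA-seq of 2 biological replicates in each of 6 groups was analysed from the raw counts deposited for each library. Per the submitters' processing notes, the authors used Trimmomatic 0.36, STAR 2.5.2b, GRCh38 and featureCounts of Subread 1.5.2 to make raw read counts per Ensembl gene; the strand setting is not given in the sources used here. Tables of the authors' normalized counts were not used. Symbols were matched for 56948 of 58051 identifiers, and 92 spike-ins (3.86% to 5.82% of counts) were left out.

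Counts were filtered with filterByExpr, TMM-normalized and fitted in edgeR 4.0.16 (R 4.3.3, limma 3.58.1), with 1 fit per line over its 6 libraries (15092 genes in FaDu, 15269 in Cal27) and 1 fit of all 12 (16240 genes) for the parental comparison and the interactions. Printed CPM use TMM factors over all 12 libraries. Standard errors and intervals are from these fits. The p-values rest on the spread between the 2 replicates of a group, pooled over all groups of the fit and moderated by the other genes. They do not cover the spread between separately selected derivatives of a line. The steps were tested on simulated data. Alternatives were another scaling, filter, fit or tool (DESeq2 1.42.0), a replicate block, and leaving out each library. All members were described, with the other cadherins of the cluster, up to 2 of the largest called rises and falls in each further list and the 5 genes most like the members' mean profile. Some genes that this rule picks from the further lists are not reported here. The members and lists were chosen with earlier results of these data known.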

Additional observations from a re-analysis of the deposited data

Results flagged for a closer look

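The effect of resistance differed between the lines for 6 desmosome genes with afatinib and 3 with erlotinib, by the interaction term in edgeR's quasi-likelihood fit of all 12 libraries. Each value is the log2 fold change in Cal27 minus that in FaDu. With afatinib it was -4.02 for DSG3 (adjusted p = 1.35e-05), -3.54 for PKP1 (adjusted p = 0.00127), -1.85 for JUP (adjusted p = 0.000505), -1.31 for PKP3 (adjusted p = 0.000514), -1.25 for DSP (adjusted p = 0.00191) and -0.73 for DSG2 (adjusted p = 0.0108). With erlotinib it was -1.71 for DSG3 (adjusted p = 0.00431), -1.42 for DSC2 (adjusted p = 0.000768) and -0.85 for DSG2 (adjusted p = 0.0057). Groups of 2 libraries are too small to look for a library that stands apart within a group.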

How the results depend on the processing

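The number of desmosome genes called was within 1.5 times its reported value under every alternative run in Cal27 AfaR against parental (6 reported), in Cal27 AfaR against ErlR (7), in the parental comparison (7) and in the AfaR interaction (6). In FaDu AfaR the count of 1 became 2 with no filter on low counts, an unadjusted p under 0.05, DESeq2 or DESeq2 on the 4 libraries compared, and 0 with at least 10 counts in every library, RLE size factors, upper-quartile or spike-in (ERCC) scaling, the fit of all 12 libraries or a call limit of 1 on the log2 fold change, and it ran from 0 to 1 when a library was left out. In FaDu ErlR the count of 0 became 2 with no filter or with DESeq2 on 4 libraries, 6 with ERCC scaling, 1 with the fit of 4 libraries or DESeq2, and 3 at an unadjusted p. In Cal27 ErlR the count of 5 became 1 with the limit of 1, and 3 to 6 when a library was left out. In FaDu AfaR against ErlR the count of 2 became 4 with no filter or ERCC scaling, 1 with the fit of 4 libraries, 0 with the limit of 1, and 1 to 3 when a library was left out. The ErlR interaction went from 3 to 5 with no filter or an unadjusted p.

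The values that changed sign had not passed the test as reported. With upper-quartile scaling DSC2 in FaDu AfaR was 0.0136. With ERCC scaling DSC2 (0.12) and DSP (0.11) changed sign in FaDu AfaR, DSG2 (0.38), DSC3 (0.44) and DSP (0.41) in FaDu ErlR, and DSG3 (0.44) and PKP3 (0.47) between parental cells. PERP in FaDu ErlR was -0.00516 with no filter, and JUP between parental cells was -0.000738 with DESeq2 on 4 libraries. When a library was left out, FaDu AfaR values ran from -0.10 to 0.40 for DSC3, -0.31 to 0.11 for DSP, -0.998 to 0.13 for PKP1 and -0.0080 to 0.17 for PKP2. FaDu ErlR values ran from -0.062 to 0.12 for DSG3, -0.12 to 0.039 for DSC3, -0.075 to 0.25 for JUP, -0.069 to 0.19 for PKP2 and -0.36 to 0.31 for PERP. Cal27 AfaR values ran from -0.058 to 0.11 for DSC2, -0.33 to 0.13 for DSC3 and -0.42 to 0.16 for PKP2, Cal27 ErlR values from -0.35 to 0.49 for PKP1, and JUP between parental cells from -0.080 to 0.097. The cause was not tested for any of these.

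The replicate numbers are only shared between groups, and the deviations of same-numbered libraries correlated from -0.22 to 0.14 over the 7 pairs of groups. With the replicate block the members called were 4 in Cal27 ErlR, 3 in FaDu AfaR against ErlR and 4 in the ErlR interaction, and the number was as reported in the other 6 comparisons. PERP lost its call in Cal27 ErlR (adjusted p = 0.0561), and in FaDu AfaR the 1 member called was PERP (-0.51, adjusted p = 0.0400) in place of PKP3 (adjusted p = 0.0641). The block gave -0.0132 for PERP in FaDu ErlR and, between parental cells, 0.078 for DSG3 and 0.0202 for PKP3. Crossed numbers, an alternative chosen after seeing the data, gave 7 members called in Cal27 AfaR and 2 in FaDu AfaR against ErlR. With 2 libraries a group, small differences could not be resolved, and counts of 13 to 83 carry the levels of PKP1 and DSG3 in Cal27 AfaR.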
